A study of Arabidopsis thaliana with 12 samples.

Results

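The genes described are 10 of the 33602 in the deposited count table, and together they cover flavonoid and anthocyanin synthesis in Arabidopsis thaliana. They were taken by their locus identifiers, from a list chosen with earlier results of these data known. The 5 early steps are CHS (AT5G13930), CHI (AT3G55120), F3H (AT3G51240), F3'H (AT5G07990) and FLS1 (AT5G08640). The 4 late steps are DFR (AT5G42800), LDOX (AT4G22880), the anthocyanin xylosyltransferase gene UGT79B1 (AT5G54060) and GSTF12 (AT5G17220), and the regulator is MYB75 (AT1G56650).

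Flavonoids are made from phenylalanine by way of p-coumaroyl-CoA. The early enzymes build the flavonoid skeleton and lead to flavonols, colourless compounds that absorb ultraviolet light. The late enzymes turn the same precursors into anthocyanins, the red and purple pigments that seedlings make in strong light or on sugar. MYB factors related to MYB12 are known to drive the early genes, whereas a complex of MYB75 or its relatives with a bHLH protein and TTG1 drives the late ones.

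RNA came from aerial parts of plants 6 days old, grown with 1% sucrose under 16 h of light at about 80 µE after 3 days at 4 °C in the dark. The study has 12 libraries, 3 in each of 4 groups. Wild type (titled 1171WTCol3) and the mutant tfIIfα1 were sequenced from a stranded mRNA kit, and another wild type (titled WTCol0) and the mutant tfIIfα2 from a stranded total RNA kit with ribosomal RNA removed. In both mutants the affected gene is the one for TFIIFα, the large subunit of a general initiation factor that works with RNA polymerase II. The kind of lesion in each allele is not given in the sources used here, and neither is whether the 3 libraries of a group came from separate plantings, so the p-values measure the spread between these libraries. Mutant and wild type were set against each other only within a kit, and an allele effect and a kit effect cannot be told apart.

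The mRNA libraries held 55915638 to 66711096 counts. The total RNA libraries held 33292996 to 37456773, of which 12069295 to 14652749 fell on nuclear genes. RAP74 (AT4G12610), which encodes TFIIFα, was at 18.4 to 21.3 CPM in the wild-type mRNA libraries and 14.3 to 16.5 CPM in tfIIfα1 (log2 fold change -0.38 ± 0.08, edgeR quasi-likelihood adjusted p = 0.00217). In total RNA it was at 7.58 to 8.06 CPM in wild type and 4.84 to 6.03 CPM in tfIIfα2 (-0.51 ± 0.12, adjusted p = 0.0659, or 0.0168 with the replicate number as a block). The summed level of 5 shoot genes was 8155 to 55470 CPM in every library, against 0.738 to 6.74 CPM for 6 root genes and 0.164 to 0.880 CPM for 5 seed genes. In these whole shoots, fewer cells of a type and less RNA per cell cannot be told apart. Among the 3 columns used for tfIIfα1, 2 carry headers that name the other allele. They are called libraries a and b here, and 72.2% and 69.6% of their nonzero counts were even numbers, against 57.6% to 61.5% in the other mRNA libraries. The part of this in the results was not tested, and values without a and b are given where they matter.

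The 250 bases before the annotated start of each gene were read from the TAIR10.1 genome of RefSeq. The 10 genes were searched for 2 kinds of word on both strands. One is CACGTG, the G-box bound by light-response factors such as HY5, and the other is any of 4 MYB words bound by flavonoid regulators, which are ACCAAAC itself, the form ACCAACC, the form ACCTAAC and the form ACCTACC. Below are the stretches of CHS and F3H, the genes that rose without overlap in tfIIfα1, of DFR, which holds both kinds of word, and of FLS1, whose fold changes were small in both alleles. Capitals mark the matched words, and each sequence reads towards the gene.
CHS, chr5:4488226-4488475, plus strand: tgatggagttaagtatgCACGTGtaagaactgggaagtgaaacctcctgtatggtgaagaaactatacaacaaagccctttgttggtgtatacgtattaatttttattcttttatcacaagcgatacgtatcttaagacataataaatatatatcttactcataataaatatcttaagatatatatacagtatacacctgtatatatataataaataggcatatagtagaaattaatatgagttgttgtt
F3H, chr3:19024942-19025191, plus strand: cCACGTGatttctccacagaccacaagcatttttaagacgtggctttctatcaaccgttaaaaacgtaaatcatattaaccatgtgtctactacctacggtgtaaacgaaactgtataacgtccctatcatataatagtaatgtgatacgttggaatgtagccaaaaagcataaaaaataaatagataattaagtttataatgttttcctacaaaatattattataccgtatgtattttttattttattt
DFR, chr5:17166033-17166282, minus strand: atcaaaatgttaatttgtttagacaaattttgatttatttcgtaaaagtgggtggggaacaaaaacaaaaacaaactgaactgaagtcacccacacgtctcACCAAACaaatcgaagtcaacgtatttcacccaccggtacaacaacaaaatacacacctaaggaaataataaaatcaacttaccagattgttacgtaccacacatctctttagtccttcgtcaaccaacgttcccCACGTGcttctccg
FLS1, chr5:2803583-2803832, plus strand: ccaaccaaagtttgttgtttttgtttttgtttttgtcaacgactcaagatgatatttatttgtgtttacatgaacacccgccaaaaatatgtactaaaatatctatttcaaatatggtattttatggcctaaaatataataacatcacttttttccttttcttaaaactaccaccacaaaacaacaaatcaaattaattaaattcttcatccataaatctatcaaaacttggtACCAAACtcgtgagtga

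CACGTG was present before 4 of the 10 genes, namely CHS, F3H, DFR and UGT79B1, and UGT79B1 held 2 copies. Of 27438 promoter stretches of the same length in the annotation, 6.49% held it. In CHS the word lay 228 to 233 bases before the start, in F3H 244 to 249 bases and in DFR 9 to 14 bases. A MYB word, ACCAAAC each time, was present before FLS1, DFR and MYB75, against 13.7% of all stretches with any of the 4 words. DFR alone of the 10 held both kinds, as did 0.966% of all stretches. These are matches of letters in a short window, and nothing about binding was measured.

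In wild type, the mean levels of 4 of the 5 early genes stood above those of all late genes in both kits. Per kilobase of exon, CHS stood highest in the wild-type mRNA libraries with a mean level of 24.7 CPM, followed by CHI at 11.0, FLS1 at 6.35 and F3H at 4.48 CPM per kilobase. The late genes LDOX at 3.35, GSTF12 at 3.17 and DFR at 2.59 CPM per kilobase came next, and the libraries of neighbours among these 3 overlapped. F3'H was at 1.72, UGT79B1 at 0.726 and MYB75 at 0.559 CPM per kilobase, and the last 2 overlapped as well. In the wild-type total RNA libraries CHS again stood highest, at 9.82 CPM per kilobase, and UGT79B1 stood lowest, at 0.195. There the libraries of each gene overlapped with those of the next in the order.

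**Figure D1:**
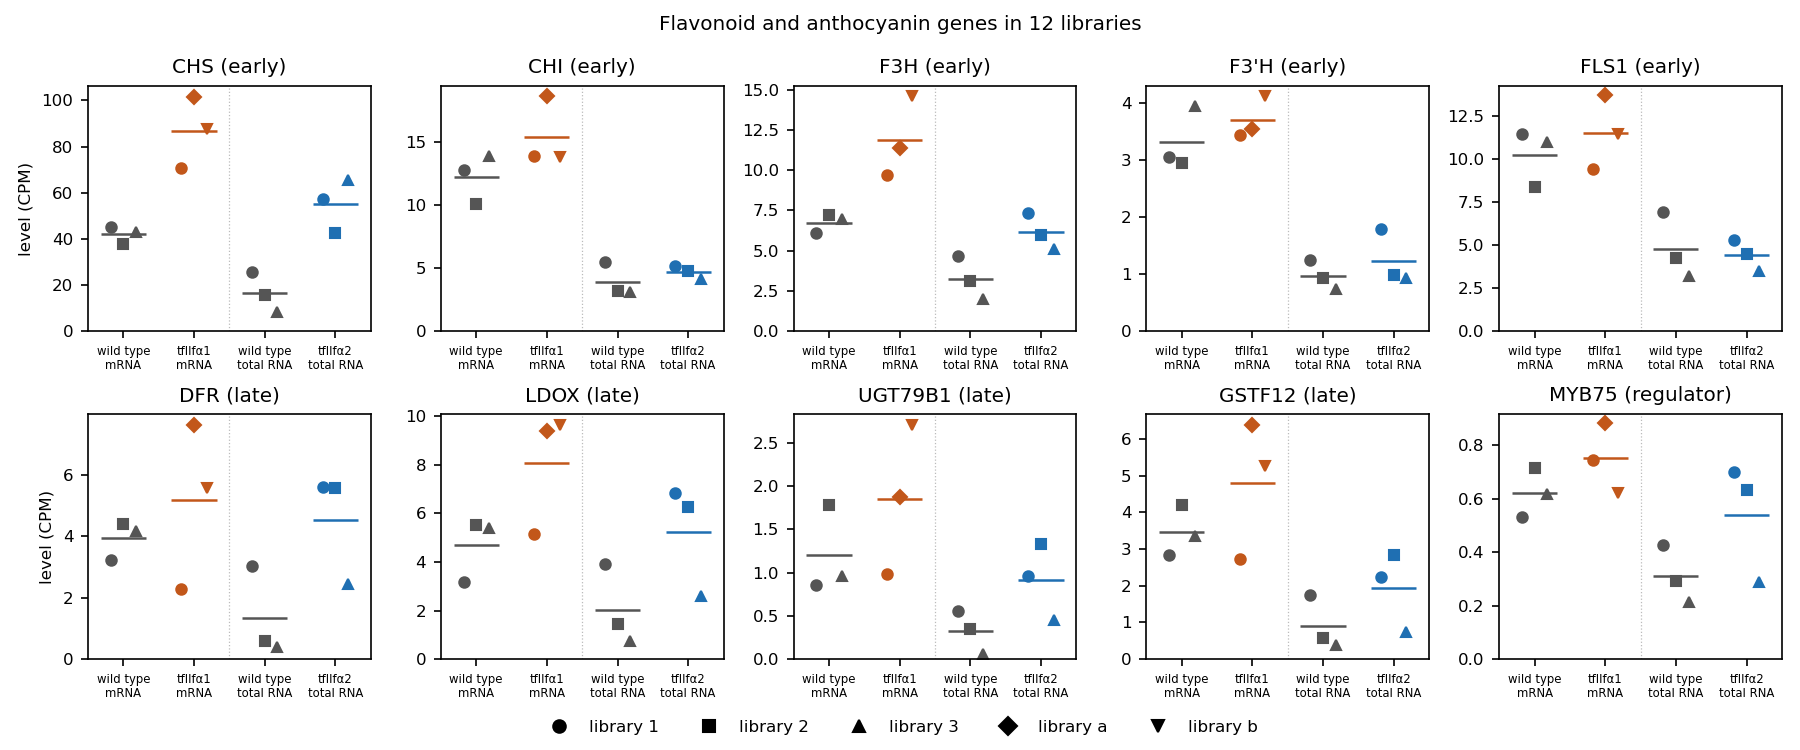
Level of each gene in CPM (vertical axis from 0, a separate scale for each gene) in the 12 libraries, with symbols for libraries, horizontal lines for group means (n = 3) and a dotted line between the kits. CHS and F3H show mutant libraries that are all above the wild-type libraries of their kit, while the wild-type total RNA libraries of DFR and LDOX run from 3.04 and 3.92 CPM in library 1 down to 0.400 and 0.738 CPM in library 3.

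In tfIIfα1, CHS, F3H and LDOX rose and none of the 10 genes fell. That is 3 of 10 genes higher, where 18.7% of the 20371 genes tested were called higher and 38.4% were called in either direction. The median log2 fold change of the 10 genes was 0.43, against -0.00 over all genes tested. All 10 fold changes were above 0.

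CHS, chalcone synthase, makes the first flavonoid. It was at 45.2, 37.9 and 42.9 CPM in wild-type libraries 1, 2 and 3, and at 70.7, 102 and 87.9 CPM in tfIIfα1 libraries 1, a and b. Every mutant library lay above every wild-type library. The rise was 2.06-fold (log2 fold change 1.05 ± 0.11, SE, n = 3 against 3, edgeR adjusted p = 3.51e-06). F3H, flavanone 3-hydroxylase, acts at the third step and feeds both flavonols and anthocyanins. It was at 6.08, 7.22 and 6.96 CPM in wild type, against 9.67, 11.4 and 14.6 CPM in tfIIfα1. These groups did not overlap either, and the rise was 1.76-fold (0.81 ± 0.13, edgeR adjusted p = 0.000218). In 24.2% of the genes tested every tfIIfα1 library lay above every wild-type library, and CHS and F3H were the 2 of the 10 that did. CHS and F3H kept their calls in every alternative run with more than 1 library in each group, with adjusted p of at most 0.0232 and 0.0216.

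The 3 remaining early genes did not pass. CHI, chalcone isomerase, closes the ring of the chalcone, and it was at 12.8, 10.1 and 13.9 CPM in wild type, against 13.9, 18.7 and 13.8 CPM in tfIIfα1. Library a was high, and the other mutant libraries lay at the top of the wild-type range (0.33 ± 0.13, edgeR adjusted p = 0.0517). With RLE normalization, with no filter on low counts, with DESeq2 or with organelle genes removed CHI passed, with adjusted p = 0.0491, 0.0153, 0.0346 and 0.0498. In 1 fit over 12 libraries CHI did not pass (edgeR adjusted p = 0.235). With 1 library left out its adjusted p ran from 0.0277, without wild-type library 3, to 0.271, without library a. F3'H, the cytochrome P450 that hydroxylates the B ring, had a log2 fold change of 0.16 ± 0.15 (adjusted p = 0.446). FLS1, the main flavonol synthase, stood at 11.4, 8.37 and 11.0 CPM in wild type, against 9.41, 13.7 and 11.5 CPM in tfIIfα1. The groups overlapped in part, with libraries a and b above the highest wild-type library (0.16 ± 0.13, adjusted p = 0.363).

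Among the late genes, LDOX alone passed. LDOX, leucoanthocyanidin dioxygenase, forms the anthocyanidin, and it was at 3.19, 5.50 and 5.39 CPM in wild type, against 5.15, 9.40 and 9.65 CPM in tfIIfα1. Libraries a and b were high, and library 1 lay within the wild-type range (0.78 ± 0.22, edgeR adjusted p = 0.0118). The call was lost without wild-type library 1 (adjusted p = 0.0578) and without library b (0.0620). It was also lost with DESeq2 (0.0834) and in 1 fit over 12 libraries (0.228). Without a and b, which leaves 1 tfIIfα1 library, the log2 fold change was 0.14. DFR, dihydroflavonol 4-reductase, commits precursors to anthocyanins, and it was at 3.22, 4.41 and 4.18 CPM in wild type, against 2.30, 7.63 and 5.58 CPM in tfIIfα1. The mutant libraries lay on both sides of the wild-type range (0.39 ± 0.29, adjusted p = 0.307). UGT79B1, which adds xylose to the anthocyanin, was at 0.63 ± 0.34 on the log2 scale (adjusted p = 0.166). GSTF12, the glutathione S-transferase that carries anthocyanin towards the vacuole, was at 0.46 ± 0.24 (adjusted p = 0.140).

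The late genes split by library. In tfIIfα1, library 1 held the lowest value for 8 of the 10 genes, and libraries a and b held the highest for 6 and 4. Without library 1, 7 of the 10 genes were called higher, the 4 late genes among them. DFR was then at 0.75 (edgeR adjusted p = 0.00369) and GSTF12 at 0.75 (adjusted p = 0.00398). In that run 7039 genes were called over all genes, 3469 of them higher. With library 1 as the only tfIIfα1 sample no spread between mutant libraries is measured, so effect sizes alone are given. CHS and F3H stayed above every wild-type library in it. DFR was at -0.77, UGT79B1 at -0.28 and GSTF12 at -0.34 on the log2 scale. The highest library of DFR exceeded the lowest 3.315-fold in tfIIfα1, against 1.373-fold in wild type.

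MYB75, also called PAP1, is the MYB factor that turns on anthocyanin synthesis. It was at 0.531, 0.713 and 0.617 CPM in wild type, against 0.746, 0.884 and 0.620 CPM in tfIIfα1, that is 34 to 54 counts in a library. The groups overlapped (0.28 ± 0.31, edgeR adjusted p = 0.502). MYB75 has near-identical relatives, and how the authors' counting treated reads shared with them is not given, so its level is uncertain. Of those relatives, MYB90 had 0 to 12 counts in a library, MYB113 had 0 to 2 and MYB114 had 0 in every library.

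**Figure D2:**
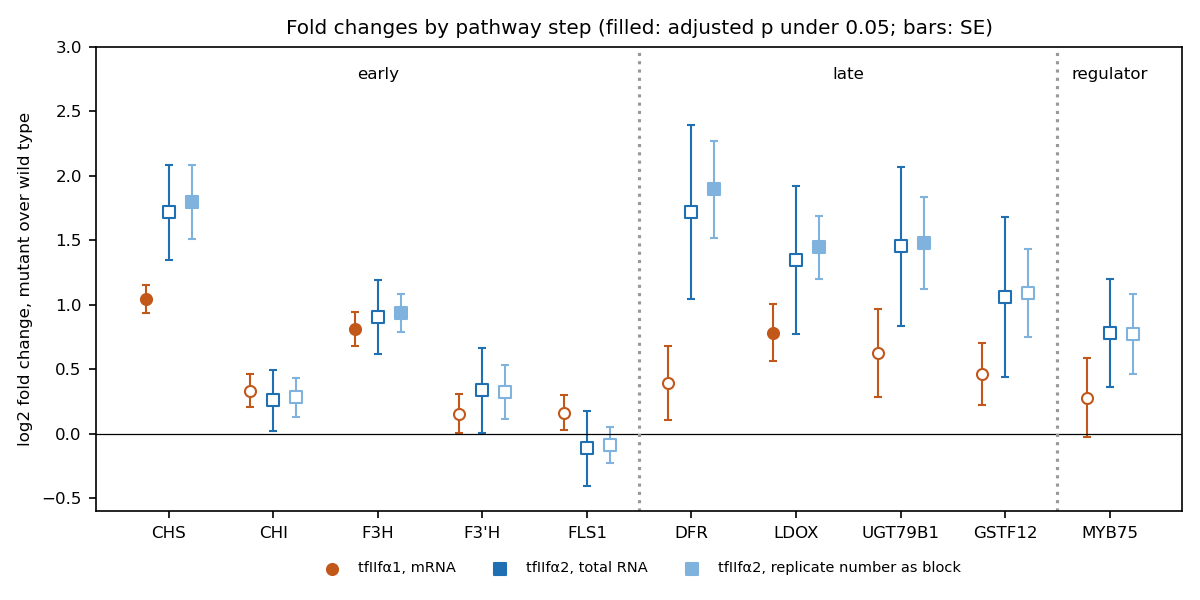
Log2 fold change of mutant over wild type (vertical axis) for the 10 genes in pathway order, with SE bars (n = 3 against 3) and filled symbols where the edgeR adjusted p was under 0.05. In tfIIfα1 CHS, F3H and LDOX are filled, in tfIIfα2 none is without the replicate block and 5 are with it, and FLS1 lies near 0 throughout.

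In tfIIfα2, 9 of the 10 fold changes were above 0 and none of the 10 genes passed in the comparison of 3 against 3 libraries. Of the 18863 genes tested, 3.2% were called, and 1.48% were called higher. The median of the 10 genes was 0.98, against -0.00 over all genes tested. At an unadjusted p under 0.05, 5 of the 10 passed, as did 4169 of the 18863 genes tested. The titles give replicate numbers, but whether libraries of equal number were grown or prepared together is not given in the sources used here. With the number as a block 5 of 10 were called higher. In that fit 18.7% of all genes were called in either direction and 9.56% were called higher. Those 5 were CHS, F3H, DFR, LDOX and UGT79B1. DESeq2 called 2 of the 10, CHS and F3H, and 1345 genes over all genes, 727 of them higher. The 6 root genes summed to 0.738 to 1.26 CPM in wild type and 1.16 to 3.00 CPM in tfIIfα2. Most of each sum was RCI3, a peroxidase gene and the only one of the 6 with enough counts to be tested here. RCI3 was higher in the mutant in all 3 same-numbered pairs (0.98 ± 0.40, edgeR adjusted p = 0.210, or 0.0148 with the block). In mRNA the root genes summed to 3.51 to 6.74 CPM in wild type and 2.71 to 4.78 CPM in tfIIfα1. There RCI3 was at -0.03 ± 0.26 (edgeR adjusted p = 0.9475) and the root gene PRP3 at -1.50 ± 0.59 (edgeR adjusted p = 0.0561). The part of root tissue in the tfIIfα2 values was not tested.

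CHS was at 25.8, 16.0 and 8.40 CPM in wild-type libraries 1, 2 and 3, and at 57.1, 42.7 and 65.4 CPM in tfIIfα2 libraries 1, 2 and 3. Every mutant library lay above every wild-type library, as in 13.1% of the genes tested. The fold change was 3.29 (log2 1.72 ± 0.37, edgeR adjusted p = 0.0527), and with the block it was 1.80 ± 0.29 (adjusted p = 0.00545). F3H was at 4.67, 3.14 and 2.00 CPM in wild type, against 7.32, 6.00 and 5.14 CPM in tfIIfα2, also without overlap. Its log2 fold change was 0.90 ± 0.29 (adjusted p = 0.123), and 0.94 ± 0.15 with the block (adjusted p = 0.00512). CHS and F3H were the 2 of the 10 whose groups did not overlap in tfIIfα1, and again in tfIIfα2. Over the genes tested, every mutant library lay above every wild-type library in 24.2% and 13.1% of them. The share of genes apart in both kits was not computed, so the recurrence cannot be read as particular to CHS and F3H.

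CHI was at 5.55, 3.2 and 3.11 CPM in wild type, against 5.22, 4.83 and 4.18 CPM in tfIIfα2 (0.26 ± 0.24, edgeR adjusted p = 0.570, or 0.224 with the block). The mutant libraries lay inside the wild-type range. FLS1 was at 6.96, 4.26 and 3.2 CPM in wild type, against 5.33, 4.48 and 3.54 CPM in tfIIfα2, likewise inside that range. Its log2 fold change was -0.11 ± 0.29 (adjusted p = 0.858, or 0.701 with the block), the one negative value of the 10. F3'H was at 0.34 ± 0.33 (adjusted p = 0.594, or 0.303 with the block) from 24 to 69 counts in a library.

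The fold changes of the late genes exceeded those of the early genes other than CHS, and their SE was larger than that of every early gene. DFR was at 3.04, 0.588 and 0.400 CPM in wild type, against 5.61, 5.59 and 2.44 CPM in tfIIfα2. Wild-type library 1 stood far above the other wild-type libraries and above mutant library 3. The log2 fold change was 1.72 ± 0.68 (edgeR adjusted p = 0.191), and 1.90 ± 0.38 with the block (adjusted p = 0.0122). LDOX was at 3.92, 1.44 and 0.738 CPM in wild type, against 6.85, 6.25 and 2.60 CPM in tfIIfα2, with the same library out of line (1.35 ± 0.57, adjusted p = 0.223). With the block LDOX was at 1.45 ± 0.24 (adjusted p = 0.00630).

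UGT79B1 was at 0.553, 0.353 and 0.0615 CPM in wild type, the last from 2 counts, and at 0.957, 1.33 and 0.450 CPM in tfIIfα2. Its log2 fold change of 1.45 ± 0.62 (edgeR adjusted p = 0.221) became 1.48 ± 0.36 with the block (adjusted p = 0.0240), and these low counts leave it imprecise. GSTF12 was at 1.76, 0.588 and 0.400 CPM in wild type, against 2.25, 2.84 and 0.739 CPM in tfIIfα2 (1.06 ± 0.62, adjusted p = 0.358, or 0.0576 with the block). MYB75 was at 0.427, 0.294 and 0.215 CPM in wild type, against 0.698, 0.631 and 0.289 CPM in tfIIfα2, from 7 to 27 counts (0.78 ± 0.42, adjusted p = 0.323, or 0.114 with the block). For GSTF12 and MYB75 mutant library 3 lay within the wild-type range.

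The order of the total RNA libraries was shared by nearly all of these genes. In wild type, library 1 was highest for 10 of 10 and library 3 lowest for 10 of 10. In tfIIfα2, library 1 was highest for 7 and library 3 lowest for 9. The highest wild-type library exceeded the lowest 7.60-fold for DFR, 5.31-fold for LDOX, 4.40-fold for GSTF12 and 3.08-fold for CHS, whereas the median over all genes tested was 1.30-fold. For DFR that ratio was larger than in 99.6% of the genes tested. In the wild-type mRNA libraries the ratio was 1.37 for DFR, 1.73 for LDOX and 1.19 for CHS. The plastid share of the counts was 57.3%, 57.8% and 62.5% in wild-type libraries 1, 2 and 3, and 59.5%, 62.5% and 59.7% in tfIIfα2. The part of that share in the spread was not tested.

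Within same-numbered pairs the mutant library was the higher one in all 3 pairs for 8 of the 10 genes, a pattern that 26.8% of the genes tested showed. CHS was 2.21-fold, 2.68-fold and 7.79-fold higher in pairs 1, 2 and 3, and DFR was 1.85-fold, 9.51-fold and 6.11-fold higher. LDOX was 1.75-fold, 4.34-fold and 3.53-fold higher. In pair 1 these genes differed least. CHI, with ratios of 0.941, 1.51 and 1.35, and FLS1, with 0.766, 1.05 and 1.11, were the 2 exceptions. Without wild-type library 1, CHS (log2 fold change 2.18, edgeR adjusted p = 0.0396) and DFR (3.2, adjusted p = 0.0404) passed. In that run 169 genes were called over all genes. Without both libraries numbered 1 none of the 10 passed.

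Ratios of counts between genes in the same library do not depend on how libraries are scaled. CHS over FLS1, the first enzyme over the flavonol step, was 3.90 to 4.53 in the wild-type mRNA libraries and 7.41 to 7.67 in tfIIfα1. In total RNA it was 2.63 to 3.75 in wild type and 9.52 to 18.5 in tfIIfα2. The mutant libraries of both kits lay wholly above their wild type. CHS over CHI behaved likewise, at 3.08 to 3.76 against 5.09 to 6.36 in mRNA and 2.70 to 4.98 against 8.84 to 15.7 in total RNA. DFR over FLS1 overlapped in mRNA, at 0.281 to 0.527 in wild type and 0.245 to 0.556 in tfIIfα1. In total RNA it was 0.125 to 0.437 in wild type and 0.691 to 1.25 in tfIIfα2, with no overlap. LDOX over CHI, another late gene over an early one, overlapped in both kits, at 0.249 to 0.546 against 0.371 to 0.699 in mRNA and 0.238 to 0.706 against 0.623 to 1.31 in total RNA. These pairs were chosen after the values had been seen, and with 3 libraries against 3 an exact permutation test cannot give a two-sided p below 0.1, so no test is given.

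**Figure D3:**
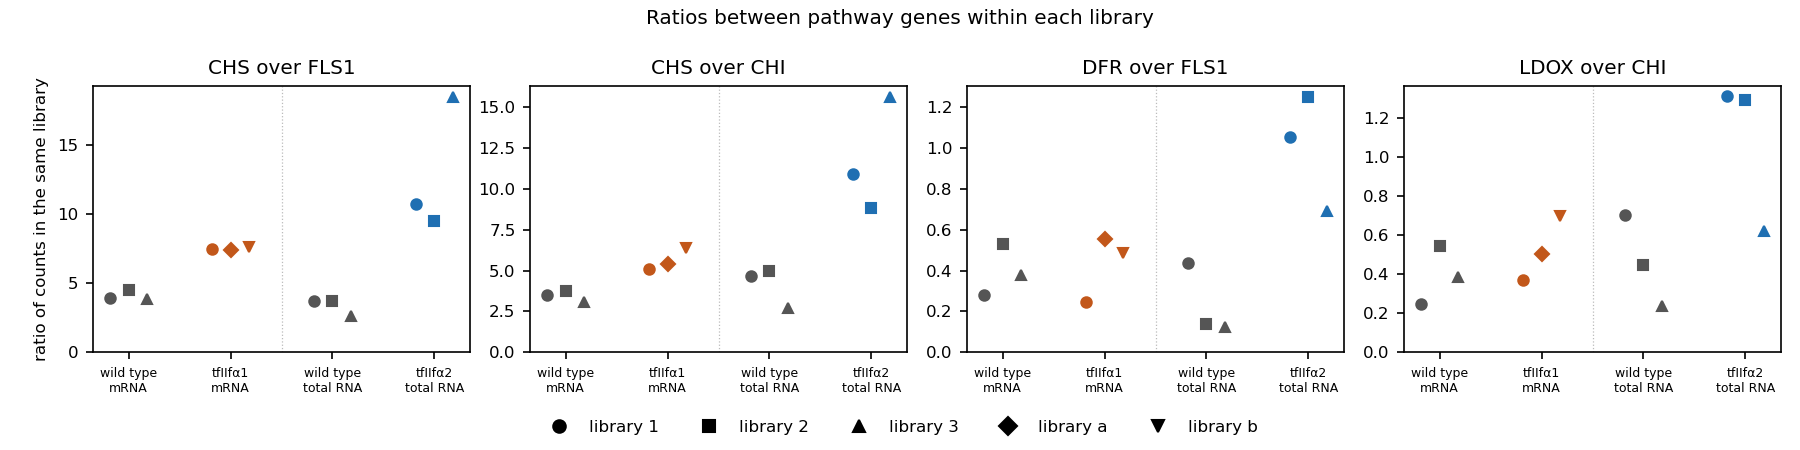
Ratio of the counts of a pair of genes in the same library (vertical axis from 0, a separate scale for each pair) for the 12 libraries by group. CHS over FLS1 separates each mutant from its wild type (7.41 to 7.67 against 3.90 to 4.53 in mRNA), while DFR over FLS1 separates tfIIfα2 only.

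Late and early steps were contrasted within each library by the mean log2(CPM + 1) of the 4 late genes minus that of the 5 early genes. In mRNA it was -1.53 ± 0.34 (SD, n = 3) in wild type and -1.60 ± 0.34 in tfIIfα1, a difference of -0.07 that is smaller than the SD. The early mean was higher by 0.46 and the late mean by 0.39 in the same libraries, with no test. In total RNA it was -1.42 ± 0.17 in wild type and -1.10 ± 0.47 in tfIIfα2, a difference of 0.32 against a pooled SD of 0.35. There the early mean was higher by 0.58 and the late mean by 0.90. With 1 library left out the mRNA difference ran from -0.22 to 0.12, with a sign above 0 without wild-type library 2 (0.11) or tfIIfα1 library 1 (0.12). The total RNA difference was 0.097 without tfIIfα2 library 2 and 0.56 without tfIIfα2 library 3. It also depended on the pseudocount, at 0.84 with a pseudocount of 0.1 and -0.046 with 5, so no order of early and late steps holds across these scales. By fitted fold changes the early genes had a median of 0.33 in tfIIfα1 and 0.34 in tfIIfα2, and the late genes 0.54 and 1.40. Within the early group CHS and F3H had larger fold changes than CHI, F3'H and FLS1 in both alleles, with no test between genes. In tfIIfα2 the SE ranges of F3H (0.90 ± 0.29) and F3'H (0.34 ± 0.33) overlapped.

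The difference between the alleles' fold changes was tested as an interaction over the 12 libraries, and 0 of the 10 genes passed, where 0.772% of 20602 genes did. DESeq2 gave 0 of 10 as well. None of the 10 had an unadjusted p under 0.05 in edgeR, where 1823 of the 20602 genes did. The tfIIfα1 change of CHS minus the tfIIfα2 change was -0.66 ± 0.41 on the log2 scale (edgeR adjusted p = 0.692). For DFR it was -1.31 ± 0.81 (adjusted p = 0.687) and for F3H -0.08 ± 0.34 (adjusted p = 0.979). These errors leave room for sizeable differences in either direction.

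In the authors' deposited table the log2 fold changes of tfIIfα1 were 1.06 for CHS and 0.83 for F3H, with adjusted p of 0.00096 and 0.00195. LDOX in tfIIfα1 stood at 0.80 in the authors' deposited table, with an adjusted p of 0.170. For tfIIfα2 the authors' deposited table gave 1.73 for CHS (adjusted p 3.78e-08), 0.92 for F3H (0.0019), 1.76 for DFR (0.0112), 1.37 for LDOX (0.0169) and 1.48 for UGT79B1 (0.0374). The model behind the authors' deposited table is not given in the sources used here. Those 5 genes are the ones that the fit with the replicate block called.

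A pair of the 10 genes have an annotated neighbour on the other strand that shares more than a few bases, and the strand setting of the counting is not given, so reads of such pairs may not be separable. GSTF12 shares 108 bases with PSY1 (AT5G17230), phytoene synthase, which was far more abundant, at a mean of 242 CPM in wild-type mRNA and 321 CPM in tfIIfα1 (log2 fold change 0.41 ± 0.06, edgeR adjusted p = 6.25e-05). In tfIIfα2 PSY1 was at 0.49 ± 0.13 (adjusted p = 0.0890, or 0.00848 with the block). F3H shares 1588 bases with AT3G51238, at a mean of 0.178 CPM in wild-type mRNA and 0.155 CPM in tfIIfα1. CHS shares 2 bases with AT5G13940, at 0.0613 CPM in wild-type mRNA and 0.0109 CPM in tfIIfα1. The levels of GSTF12 are uncertain for this reason.

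Of 62 further genes around the pathway, listed by role, 54 were tested in tfIIfα1, and 13 (24.1%) were called higher and 9 (16.7%) lower. Over all genes tested these shares were 18.7% and 19.6%, so the joint count was near the background. In tfIIfα2 50 were tested, and 1 was called higher, where 1.48% of all genes were called higher and 1.72% lower. With the replicate block 7 were called higher and 3 lower, where 9.56% and 9.18% of all genes were. DESeq2 called 13 higher and 10 lower in tfIIfα1, and 5 higher and 1 lower in tfIIfα2. Over all genes it called 3813 higher and 3803 lower in tfIIfα1, and 727 higher and 618 lower in tfIIfα2. Between the alleles 0 of 53 differed in edgeR and 0 in DESeq2. An unadjusted p under 0.05 was found for 2 of them, and for 1823 of the 20602 genes tested.

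Of 9 genes for the entry steps from phenylalanine, 5 rose and none fell in tfIIfα1, where 18.7% of all genes tested were called higher. Their median was 0.31. PAL1, phenylalanine ammonia-lyase, rose by 0.62 ± 0.08 (edgeR adjusted p = 2.94e-05), C4H, cinnamate 4-hydroxylase, by 0.43 ± 0.06 (adjusted p = 0.0001) and 4CL1, a 4-coumarate:CoA ligase, by 0.40 ± 0.06 (adjusted p = 7.72e-05). PAL2 rose by 0.28 ± 0.06 (adjusted p = 0.00164). In 1 fit over 12 libraries PAL2 (adjusted p = 0.0849) and 4CL1 (adjusted p = 0.0608) were not called. In tfIIfα2 2 of the 9 had an unadjusted p under 0.05, as did 4169 of the 18863 genes tested. None of the 9 passed in edgeR, and DESeq2 called 1, C4H. There all 9 fold changes were above 0 and the median was 0.34. C4H was at 0.56 ± 0.14 (adjusted p = 0.0722), and it was called with the block (0.57 ± 0.09, adjusted p = 0.00483). 4CL2 was at 0.47 ± 0.20 (adjusted p = 0.211), 4CL5 at 0.59 ± 0.25 (0.227) and PAL3 at 0.31 ± 0.17 (0.334).

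Of 7 tested genes of the flavonol branch and its helpers, 4 rose and none fell in tfIIfα1, with a median of 0.44, where 18.7% of all genes tested were called higher. The largest change was in UGT73C6, a flavonol glucosyltransferase, at 0.767, 0.509 and 1.00 CPM in wild type, against 2.80, 3.01 and 1.64 CPM in tfIIfα1, with no overlap (1.70 ± 0.28, edgeR adjusted p = 0.000257). UGT89C1 (0.50 ± 0.07, adjusted p = 0.000117) and UGT78D1 (0.44 ± 0.07, adjusted p = 0.000125), which add rhamnose to flavonols, also rose. OMT1, a methyltransferase that acts on flavonols, rose by 0.31 ± 0.06 (adjusted p = 0.000533). In 1 fit over 12 libraries UGT78D1 (adjusted p = 0.114) and OMT1 (adjusted p = 0.167) were not called.

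In tfIIfα2 1 of the 7 was called, higher, with a median of 0.50, where 1.48% of all genes tested were called higher. FLS3, a minor relative of FLS1, was at 0.251, 0.264 and 0.154 CPM in wild type, against 0.905, 0.726 and 0.514 CPM in tfIIfα2, from 5 to 35 counts (1.66 ± 0.35, edgeR adjusted p = 0.0497). The groups did not overlap, but the call was lost when any 1 library was left out, with adjusted p from 0.0725 to 0.153. In the same libraries UGT73C6 was at 0.854, 0.529 and 0.523 CPM in wild type, against 2.56, 1.58 and 1.22 CPM in tfIIfα2. Its log2 fold change was 1.48 ± 0.35 (adjusted p = 0.0643), and it was called with the block (adjusted p = 0.00340). CHIL, the helper of chalcone isomerase, was at 0.50 ± 0.19 (adjusted p = 0.174, or 0.0218 with the block), and UGT89C1 at 0.51 ± 0.24 (adjusted p = 0.259).

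Of 8 genes that decorate anthocyanins, 3 (37.5%) rose and none fell in tfIIfα1, with a median of 0.40. Over all genes tested 18.7% were called higher, the like share for these 3, and 38.4% were called in either direction. With 8 genes the difference in shares was not tested. UGT78D2, the glucosyltransferase that acts on anthocyanidins and flavonols, was at 11.8, 12.1 and 12.5 CPM in wild type, against 19.9, 23.9 and 23.3 CPM in tfIIfα1. The groups were well apart (0.88 ± 0.08, edgeR adjusted p = 1.37e-06). SCPL10, a serine carboxypeptidase-like acyltransferase that attaches sinapoyl groups, rose by 0.94 ± 0.12 (adjusted p = 2.36e-05), and BGLU10 rose by 0.34 ± 0.08 (adjusted p = 0.00461). The acyltransferase gene 3AT1 was at 0.60 ± 0.35 (adjusted p = 0.197).

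In tfIIfα2 none of 7 tested decoration genes passed in edgeR, and DESeq2 called UGT78D2 and SCPL10. Of the 7, 2 had an unadjusted p under 0.05, as did 4169 of the 18863 genes tested. The median of the 7 was 0.70. UGT78D2 was at 4.72, 4.29 and 3.17 CPM in wild type, against 10.1, 6.66 and 7.20 CPM in tfIIfα2, again without overlap (0.98 ± 0.21, adjusted p = 0.0527, or 0.00287 with the block). SCPL10 was at 0.86 ± 0.26 (adjusted p = 0.109, or 0.00101 with the block), UGT75C1 at 0.76 ± 0.53 (adjusted p = 0.447) and 3AT2 at 0.70 ± 0.62 (adjusted p = 0.553). UGT75C1, which adds glucose to anthocyanins, was at -0.18 ± 0.19 in tfIIfα1 (adjusted p = 0.483). It lies in a stretch of chromosome 4 in which 234 of 271 tested genes were called lower in tfIIfα1, with a median of -0.997, and which holds none of the 10 pathway genes. By locus number RAP74 (AT4G12610) lies just outside this stretch, and the part of the stretch in its tfIIfα1 value was not tested. Of the 5 genes for proanthocyanidins, the seed coat tannins, AHA10 alone was tested, at 0.14 ± 0.21 in tfIIfα1 (adjusted p = 0.632) and -0.15 ± 0.24 in tfIIfα2 (adjusted p = 0.749).

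None of the known activators passed in either allele, in edgeR or in DESeq2, and none had an unadjusted p under 0.05. In tfIIfα1 7 of 10 had enough counts to be tested, with a median of 0.03, and in tfIIfα2 4 of 10, with a median of -0.30. MYB12 and MYB11, which drive the early genes, were at 0.59 ± 0.55 (edgeR adjusted p = 0.423) and 0.72 ± 0.59 (adjusted p = 0.358) in tfIIfα1. Their relative MYB111 was at -0.34 ± 0.17 (adjusted p = 0.133) in tfIIfα1 and -0.53 ± 0.70 (adjusted p = 0.709) in tfIIfα2. Of the bHLH partners, EGL3 was at 0.13 ± 0.15 (adjusted p = 0.517) in tfIIfα1 and 0.02 ± 0.19 (adjusted p = 0.969) in tfIIfα2, and GL3 was at -0.64 ± 0.58 (adjusted p = 0.562) in tfIIfα2. TTG1 was at -0.06 ± 0.13 (adjusted p = 0.810) in tfIIfα2.

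Of 11 genes that restrain the pathway, 3 (27.3%) fell and none rose in tfIIfα1, with a median of -0.11. Of all genes tested 19.6% were called lower, a share not far from that of this list. The 3 were F-box genes whose proteins mark phenylpropanoid or flavonoid enzymes for degradation. KFBCHS, whose protein targets chalcone synthase, was at 98.3, 104 and 111 CPM in wild type, against 67.4, 67.7 and 77.3 CPM in tfIIfα1, with no overlap (-0.56 ± 0.07, edgeR adjusted p = 2.64e-05). KFB20 fell by 0.83 ± 0.10 (adjusted p = 1.9e-05) and KFB50 fell by 0.29 ± 0.07 (adjusted p = 0.00313), both of which target phenylalanine ammonia-lyase. In 1 fit over 12 libraries, which gives each gene 1 spread for both kits, all 3 calls were lost, with adjusted p = 0.320 for KFBCHS, 0.240 for KFB20 and 0.527 for KFB50. LBD37 was at -0.11 ± 0.07 (adjusted p = 0.190).

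In tfIIfα2 none of these 11 passed in edgeR or DESeq2 or had an unadjusted p under 0.05, and the median was 0.20. KFBCHS was at 26.3, 65.5 and 61.6 CPM in wild type, against 17.6, 27.8 and 58.4 CPM in tfIIfα2. Library 1 of both groups was the lowest for this gene, and the groups overlapped (-0.56 ± 0.47, adjusted p = 0.529, and -0.63 ± 0.18 with the block, adjusted p = 0.0462). SPL9 was at 0.36 ± 0.24 (adjusted p = 0.425), LBD38 at 0.35 ± 0.31 (0.553) and MYB4 at 0.26 ± 0.23 (0.559).

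Of 11 genes of light signalling upstream of the pathway, 1 rose and 6 fell in tfIIfα1, with a median of -0.25, where 18.7% of all genes tested were called higher and 19.6% lower. HYH, a close relative of the light-response factor HY5, was the one that rose. HY5 itself was at -0.38 ± 0.16 and was not called (edgeR adjusted p = 0.0766). BBX22, a B-box factor that acts with HY5, was at 101, 96.9 and 89.8 CPM in wild type, against 69.5, 56.7 and 67.2 CPM in tfIIfα1, with no overlap (-0.57 ± 0.08, edgeR adjusted p = 5.12e-05). UVR8, the ultraviolet-B receptor, fell by 0.31 ± 0.06 (adjusted p = 0.000954), PIF3 fell by 0.45 ± 0.10 (adjusted p = 0.00232) and RUP1, a repressor of UVR8, fell by 0.73 ± 0.19 (adjusted p = 0.00817). The calls of PIF3 and RUP1 were lost in 1 fit over 12 libraries (adjusted p = 0.136 and 0.126). They were also lost without libraries a and b, which leaves 1 tfIIfα1 library.

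In tfIIfα2 none of the 11 passed in edgeR, and DESeq2 called BBX22 lower. Of the 11, 2 had an unadjusted p under 0.05, as did 4169 of the 18863 genes tested. The median of the 11 was -0.05. BBX22 was at 26.8, 38.3 and 34.3 CPM in wild type, against 18.7, 23.4 and 22.6 CPM in tfIIfα2, again without overlap (-0.62 ± 0.16, adjusted p = 0.0777, or 0.00277 with the block). UVR8 was at -0.32 ± 0.11 (adjusted p = 0.141, or 0.0230 with the block), COP1 at -0.23 ± 0.11 (adjusted p = 0.287) and RUP2 at 0.54 ± 0.29 (adjusted p = 0.318). HYH was at 0.54 ± 0.45 (adjusted p = 0.530), and it was called higher with the block (0.56 ± 0.13, adjusted p = 0.0223). HY5 was at -0.05 ± 0.21 (edgeR adjusted p = 0.913).

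**Figure D4:**
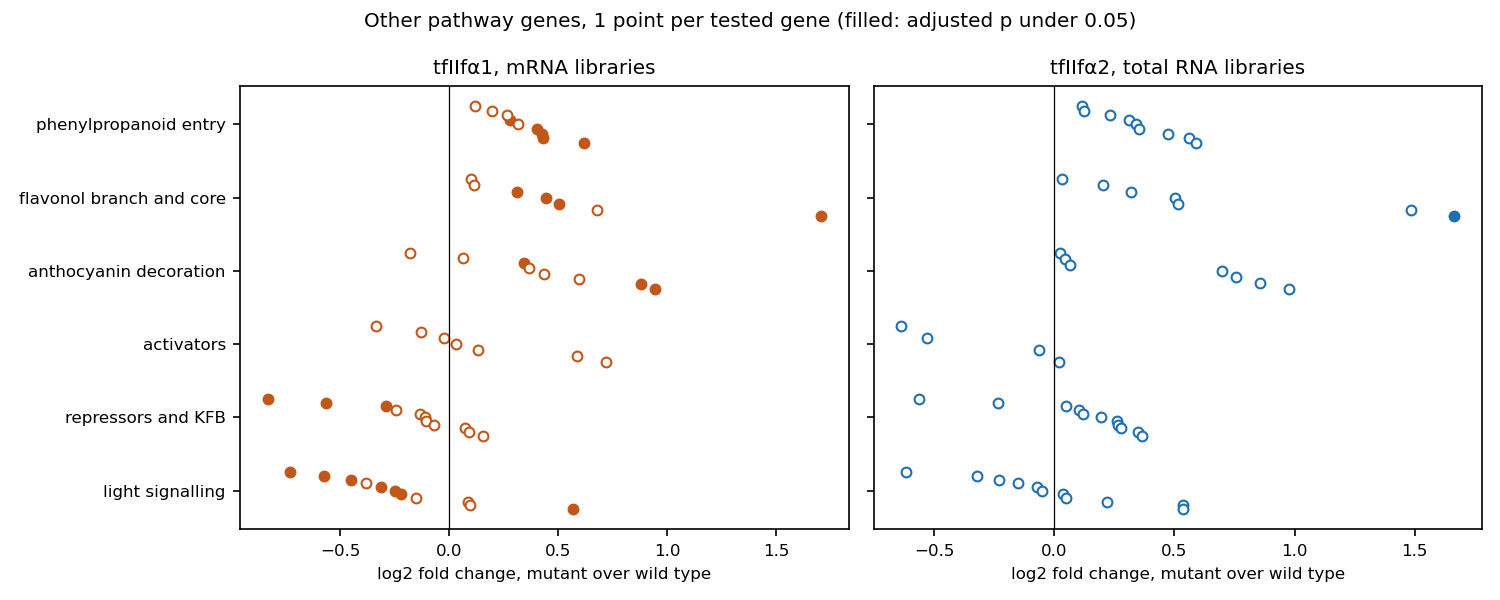
Log2 fold change (horizontal axis) of each tested gene in 6 lists around the pathway (vertical axis), tfIIfα1 on the left and tfIIfα2 on the right, with filled points where the edgeR adjusted p was under 0.05. In tfIIfα1 the filled points of the 3 biosynthetic lists lie above 0 and those of the repressors below 0, and in tfIIfα2 FLS3 alone is filled.

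Among the 15958 genes with a mean of at least 1 CPM in each kit, those with profiles closest to the early genes were emb1990, RAN2, PGDH1 and NIT1. The measure was the root mean square difference over 12 libraries on the log2(CPM + 1) scale from the mean profile of the 5 early genes, and it was 0.0848, 0.0969, 0.0971 and 0.103. None of the 5 early genes was itself as close, with F3H the nearest at 0.204 and CHS at 0.684. For the late genes the closest were CYP79F2 at 0.226, AT5G38020 at 0.229, ATTLL1 at 0.237 and SQE6 at 0.252, and GSTF12 itself was at 0.163.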

How the data were processed

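Per the labels' protocols, RNA was extracted with an RNeasy kit from aerial parts, and libraries came from a stranded mRNA or a stranded total RNA kit. Tools listed in the submitters' processing notes are Bowtie2 2.2.9, edgeR 3.20.1 and FastQC 0.11.5, with TAIR10 as build and no roles, and the counting tool is not given in the sources used here. The authors deposited raw counts per gene for 33602 genes, plus mean normalized counts for each group, which are a score and partly rounded. They also deposited log2 fold changes and p-values, per the file headers.

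The raw counts were compared in edgeR 4.0.16 (R 4.3.3), each allele with the wild type of its kit. Low counts were filtered by filterByExpr, libraries were scaled by TMM, and genes were tested by quasi-likelihood F with Benjamini-Hochberg adjustment over all genes tested, at a threshold of 0.05. SE is |log2 fold change| divided by the root of F, and CPM used TMM library sizes. The alleles were compared by an interaction term fitted over the 12 libraries. The biological coefficient of variation was 0.0827 in mRNA and 0.184 in total RNA. The pipeline was checked on simulated data.

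The members and lists were chosen with earlier results of these data known. Beside the 10 genes, the text names from each list up to 4 genes by smallest p in each comparison, and the 4 genes closest in profile to the early and to the late genes. HYH was named after its value was seen, and so were HY5, RCI3, PRP3, PSY1, AT3G51238, AT5G13940, MYB90, MYB113 and MYB114. Of the 3 tfIIfα1 columns, 2 have the other allele in their headers together with the run prefix of the mRNA titles. The authors' tfIIfα1 mean equals a weighted sum of the 3 columns within 0.0714% over 5666 genes with a mean of at least 1000. A further 6 count columns and 18 normalized columns were not used.

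For the block, the total RNA libraries were paired by the numbers in their titles, and what equal numbers share is not given. Deviations from the group means correlated over genes at 0.711, 0.264 and 0.596 between libraries of equal number. Between wild-type and tfIIfα2 libraries of unequal number they correlated at -0.610 to 0.0701. Centring on group means pushes these values down where the equal-number ones are high, so they are not separate evidence. Alternatives were RLE normalization, no count filter, DESeq2 1.42.0, organelle genes removed, 1 fit over 12 libraries, each library left out, libraries a and b left out, the replicate block, other pseudocounts and, added after seeing the data, both total RNA libraries numbered 1 left out. Promoter stretches came from the TAIR10.1 genome and annotation of RefSeq, matched by locus identifier.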

Additional observations from a re-analysis of the deposited data

How the results depend on the processing

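The count of the 10 genes called in tfIIfα1 was 3, and it ran from 2 to 7 with 1 library left out. In tfIIfα2 it was 0, against 1 with no count filter, 2 with DESeq2, 2 in 1 fit over 12 libraries, 5 with the replicate block and 0 to 2 with 1 library left out. Between the alleles it was 0 throughout. Over all genes the tfIIfα1 count of 7820 became 4329 in 1 fit over 12 libraries and 4838 without libraries a and b. The tfIIfα2 count of 603 became 1345 with DESeq2, 2926 in 1 fit over 12 libraries, 3535 with the replicate block, 58 without both libraries numbered 1, and 4 to 169 with 1 library left out. The count of 159 between the alleles became 333 with DESeq2. The late minus early contrast of tfIIfα2, 0.32, moved to 0.84 and -0.046 with pseudocounts of 0.1 and 5. The count of the 10 genes was 7 without tfIIfα1 library 1 and 2 without wild-type total RNA library 1, while the counts over all genes fell whenever a library was left out. For all these settings the cause was not tested.

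Signs, on the log2 scale, reversed in genes without a call in the main fits. In tfIIfα1 without a and b, which leaves 1 mutant library, DFR was at -0.77. Without both, FLS1 was at -0.13, UGT79B1 at -0.28, GSTF12 at -0.34, MYB11 at -0.42 and EGL3 at -0.15. Without both libraries numbered 1, FLS1 was at 0.11 and MYB111 at 0.034 in tfIIfα2. With 1 library left out, values in tfIIfα1 ran from -0.0078 to 0.75 for DFR, -0.14 to 1.08 for MYB11 and -0.013 to 0.25 for EGL3. In tfIIfα2 they ran from -0.34 to 0.26 for FLS1, -0.043 to 0.57 for F3'H, -1.14 to 0.65 for MYB111, -0.17 to 0.0072 for TTG1, -0.16 to 0.15 for EGL3, -0.022 to 1.34 for 3AT2 and -0.11 to 0.56 for LBD38. In the interaction they ran from -0.26 to 0.22 for CHI, -0.45 to 0.16 for F3H, -0.42 to 0.19 for F3'H and -0.096 to 0.50 for FLS1.

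Of the planned settings, the replicate block was not fitted for tfIIfα1, because the headers of 2 of its 3 columns leave their replicate numbers ambiguous. In tfIIfα2 the block changed the call of none of the 10 genes or the listed pathway genes beyond those given in the text. Depth limits MYB75 and UGT79B1 most, with 7 to 27 and 2 to 42 counts in a total RNA library.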
